A study of Homo sapiens with 5 samples.

Results

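Caveolae are small flask-shaped pits of the plasma membrane that buffer membrane tension, and they are abundant in fibroblasts, endothelial cells and muscle. Their coat is built from caveolins, which insert into the membrane, and from cavins, which assemble around them in the cytosol. EHD2 and the PACSIN proteins act at the neck of the pit. TEAD4 is a DNA-binding partner of YAP1, the effector of the mechanosensitive Hippo pathway, and the TEAD recognition motif is the heptamer ACATTCC.

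The genes described here are 10 in number, namely CAV1, CAV2, CAV3, CAVIN1, CAVIN2, CAVIN3, CAVIN4, EHD2, PACSIN2 and PACSIN3, chosen by name out of the 20007 protein-coding gene symbols of GENCODE release 44. A TEAD4 peak was attributed to a gene when its summit lay in the gene body or within 50 kb of any annotated transcription start site (TSS) of the gene on hg38. All 10 genes were found in the annotation, and together they held 42 of the 21113 peaks of the list. Of these peaks 5 were in range of both CAV1 and CAV2, so that the genes summed to 47 attributions.

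The series compared TEAD4 ChIP (3 replicates) with input chromatin (2 samples, 1 for ChIP replicates 1 and 2 and 1 for replicate 3) in LX-2 cells, an immortalised human hepatic stellate cell line used as a model of myofibroblastic cells, all of which had received only the solvent DMSO. The deposited data are 1 peak list that the authors derived from ChIP replicates 1 and 3 together, after leaving out replicate 2 as not concordant. It holds no value per replicate, so no spread between replicates could be given for any peak, and the sequencing depth of the samples is unknown here. The strength of a peak is given below by its signal value, the peak caller's measure of enrichment, and by its rank among all peaks. RNA was not measured in this list, and marker genes of stellate cells were not checked here.

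Every caveola gene had at least 1 peak by this rule, against 56.2% of all protein-coding genes. A summit lay within 2.5 kb of an annotated TSS at 6 of the 10 genes (CAV1, CAVIN1, CAVIN2, CAVIN3, EHD2 and PACSIN2), against 16.7% of all protein-coding genes. With only the TSS of the Ensembl canonical transcript, 4 genes kept such a peak, against 11% of all genes, since the TSS-proximal peaks of EHD2 and PACSIN2 lay at alternative start sites. A peak in the top 10% of the list by signal value (192 or more) was present at 5 of the 10 genes (CAV1, CAV2, CAVIN1, CAVIN2 and EHD2), against 11.3% of all genes. These shares are descriptions of a list of genes chosen by name, and no test was made of them.

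The number of peaks differed widely between the genes. CAV2 had 16 peaks, CAVIN2 had 7, CAV1 had 6, EHD2 and PACSIN3 had 4 each, CAV3 and CAVIN1 had 3 each, PACSIN2 had 2, and CAVIN3 and CAVIN4 had 1 each. The length searched also differed, from 100 kb at CAVIN1 to 313 kb at CAV2. Its relation to the counts was not tested, and PACSIN2 had 2 peaks in 239 kb where CAVIN2 had 7 in 100 kb. Per 100 kb of searched window, CAVIN2 had 7 peaks, CAV1 had 5.92 and CAV2 had 5.12, whereas the median over all protein-coding genes was 0.667, with an upper quartile of 1.56. The lowest density of the family, 0.837 peaks per 100 kb, was that of PACSIN2, followed by CAVIN3 with 0.995 and CAVIN4 with 1. CAVIN2 had a higher density than 99.6% of all protein-coding genes, CAV1 than 99.2% and CAV2 than 98.7%. The values of CAV1 and CAV2 are not separate, since 5 of the 6 CAV1 peaks are also counted at CAV2. With its canonical transcript only, CAV2 kept 5 of its 16 peaks.

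**Figure D1:**
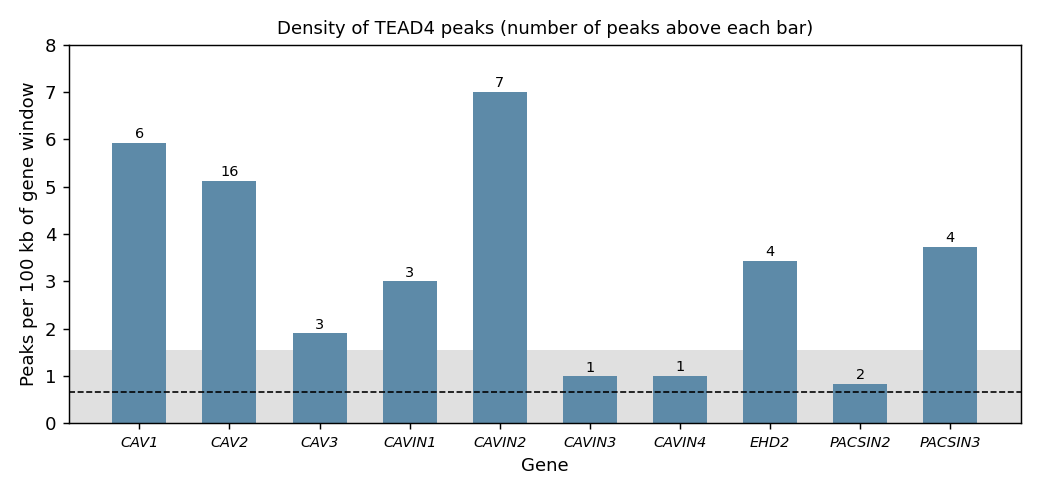
Bars give the TEAD4 peaks per 100 kb of searched window for each gene, the number above a bar is its count of peaks, the dashed line is the median over all protein-coding genes and the grey band its quartiles. CAV1, CAV2, CAV3, CAVIN1, CAVIN2, EHD2 and PACSIN3 lie above the band, and CAVIN3, CAVIN4 and PACSIN2 lie within it.

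The sequences at or near the summits show what the motif searches below refer to. All are read from the plus strand of hg38, 5′ to 3′, in lower case. Capitals mark the TEAD motif, which reads ACATTCC on the plus strand and appears as GGAATGT when it lies on the minus strand. They also mark the AP-1 motif, which reads TGACTCA on 1 strand and therefore TGAGTCA on the other, or, where stated, only the shorter TEAD core, which reads CATTCC and appears as GGAATG from the minus strand. The first group holds the elements of the CAV1 and CAV2 locus. The CAV1 upstream element is the strongest peak of CAV1 and carries the core alone. The inverted pair holds 2 TEAD motifs on opposite strands, the left on the minus and the right on the plus strand. The strongest CAV2 peak holds none of these motifs within 100 bp of its summit. The distal CAV2 peak and the CAV1 intronic peak hold an AP-1 motif.
CAV1 upstream element, core (chr7:116522414-116522476): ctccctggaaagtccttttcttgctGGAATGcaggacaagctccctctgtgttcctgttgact
CAV1 and CAV2 inverted pair, TEAD (chr7:116477066-116477155): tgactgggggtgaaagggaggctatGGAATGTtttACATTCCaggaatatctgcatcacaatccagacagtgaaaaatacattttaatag
CAV2 strongest peak, no motif (chr7:116354995-116355095): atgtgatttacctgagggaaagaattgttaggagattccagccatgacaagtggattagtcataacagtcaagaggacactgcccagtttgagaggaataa
CAV2 distal peak, AP-1 (chr7:116327931-116328030): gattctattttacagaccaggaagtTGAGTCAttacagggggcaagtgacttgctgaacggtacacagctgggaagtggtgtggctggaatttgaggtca
CAV1 intronic peak, AP-1 (chr7:116528204-116528272): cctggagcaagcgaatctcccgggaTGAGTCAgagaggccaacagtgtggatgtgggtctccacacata

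The second group holds the cavins and the neck proteins. The CAVIN1 upstream element was the only peak of the family with both a TEAD and an AP-1 motif. In the PACSIN2 peak the TEAD motif was centred on the summit. The CAVIN2 and PACSIN2 windows overlap an annotated UTR and are kept short, as is that of CAVIN3. The CAVIN2 and CAVIN3 windows show the motif beside the summit and do not include the summit itself.
CAVIN1 upstream element, TEAD and AP-1 (chr17:42428361-42428480): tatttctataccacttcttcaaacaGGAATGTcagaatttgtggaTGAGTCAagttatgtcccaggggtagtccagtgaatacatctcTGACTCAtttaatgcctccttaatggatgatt
CAVIN1 promoter, core (chr17:42423442-42423519): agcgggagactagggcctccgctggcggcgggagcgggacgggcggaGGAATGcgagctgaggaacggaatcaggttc
CAVIN2 start site, core (chr2:191847088-191847115): caggggaactgCATTCCagctgctctta
CAVIN3, TEAD (chr11:6319982-6320010): gggaggggtcaGGAATGTgggtgtggtag
EHD2 intronic peak, AP-1 (chr19:47729658-47729743): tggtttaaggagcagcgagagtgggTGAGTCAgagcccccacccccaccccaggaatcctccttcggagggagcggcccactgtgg
EHD2 downstream peak, AP-1 (chr19:47743233-47743331): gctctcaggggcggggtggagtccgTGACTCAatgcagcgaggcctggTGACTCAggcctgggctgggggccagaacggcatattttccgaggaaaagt
PACSIN2, TEAD (chr22:43002320-43002348): gagctgatgcaGGAATGTggccataagca
PACSIN3, TEAD (chr11:47189426-47189493): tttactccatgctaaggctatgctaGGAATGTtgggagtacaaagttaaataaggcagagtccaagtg

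CAV1 encodes caveolin-1, the protein without which caveolae do not form outside striated muscle. The gene lies at chr7:116524994-116561179 on the plus strand. Its strongest peak was at chr7:116522277-116522605, with a signal value of 239 (rank 1314 of 21113), and the summit lay 2543 bp upstream of the nearest CAV1 TSS, just beyond the 2.5 kb taken as the promoter. The peak at the promoter itself, 284 bp upstream of a TSS, had a signal value of 64.1 and sat below the median of the list (68.1). The upstream element was therefore 3.72 times the strongest promoter peak of the gene. A further peak, in intron 2 of the canonical transcript and 1954 bp downstream of an alternative TSS, had a signal value of 47.5 and carried the AP-1 motif shown above, 15 bp from the summit.

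The other CAV1 peaks were distal. At 12799 bp upstream, in the interval between CAV2 and CAV1, a peak with a signal value of 50.7 carried an AP-1 motif. At 47864 bp upstream, inside the CAV2 record, the peak at chr7:116477030-116477219 had a signal value of 85.1 and held the inverted TEAD pair, whose motifs are separated by 3 bases and centred 36 and 26 bp from the summit. It was the only one of the 42 peaks with more than 1 TEAD motif. The last peak lay 43635 bp downstream of the nearest CAV1 TSS, in an intron of the lncRNA gene COMETT, where the signal value was 53.9 and the IDR score 932. (IDR, the irreproducible discovery rate, measures how well the rank of a peak repeats between replicates, and the score reaches 1000 at best.)

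CAV2 encodes caveolin-2, which assembles with caveolin-1. Its annotated record is much longer than its coding transcripts. The canonical transcript spans chr7:116499738-116508541, but transcripts without a defined coding sequence extend the record upstream to position 116287380. Of the 16 CAV2 peaks, 10 lay in this upstream stretch, 2 lay before the record and 4 lay after it, towards and into CAV1. No CAV2 peak lay within 2.5 kb of a CAV2 TSS, and 5 lay within 50 kb of the canonical TSS.

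The strongest peaks of the whole family were in this stretch. The strongest, at chr7:116354716-116355319, had a signal value of 382 (rank 359), with its summit 65132 bp from the nearest annotated CAV2 TSS, that of a transcript without a defined coding sequence. The next, at chr7:116443043-116443423, had a signal value of 346 (rank 484). The peak at chr7:116327844-116328210, with a signal value of 299 (rank 757), had its summit 109 bp from a TSS of an unnamed lncRNA gene and an AP-1 motif 46 bp from the summit. Neither of the other 2 held a TEAD or an AP-1 motif within 100 bp of the summit. All 3 lay in introns of the CAV2 record and of an unnamed lncRNA gene that overlaps it, and their attribution to CAV2 rests on those transcripts.

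The rest of the stretch held weaker peaks. A peak of 164 at 73122 bp from the nearest CAV2 TSS had a companion summit 201 bp away. The signal value of this companion, 19.4, was the lowest of the family. Its −log10 q-value was 2.51, and every other peak of the family had 4.76. The strongest peak also had a companion, on the same interval 201 bp away, with a signal value of 33.6 and a TEAD motif 91 bp from its summit. This motif, at chr7:116355152-116355158, lies between both summits. It is just over 100 bp from that of the strongest peak, so it was counted at the companion only. Peaks of 46.9, 47.2 and 40.6 lay below the median, and the first 2 carried an AP-1 motif. Upstream of the record lay peaks of 118 and 65.4, and the latter was nearer to a TSS of TES (8256 bp) than to any of CAV2.

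Counted once, CAV1 and CAV2 held 17 peaks, 40.5% of those of the family, of which 4 were in the top 10% of the list. If the gene is taken as its canonical transcript only, CAV2 kept 5 peaks and its strongest was the CAV1 upstream element. CAV1 kept 6.

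**Figure D2:**
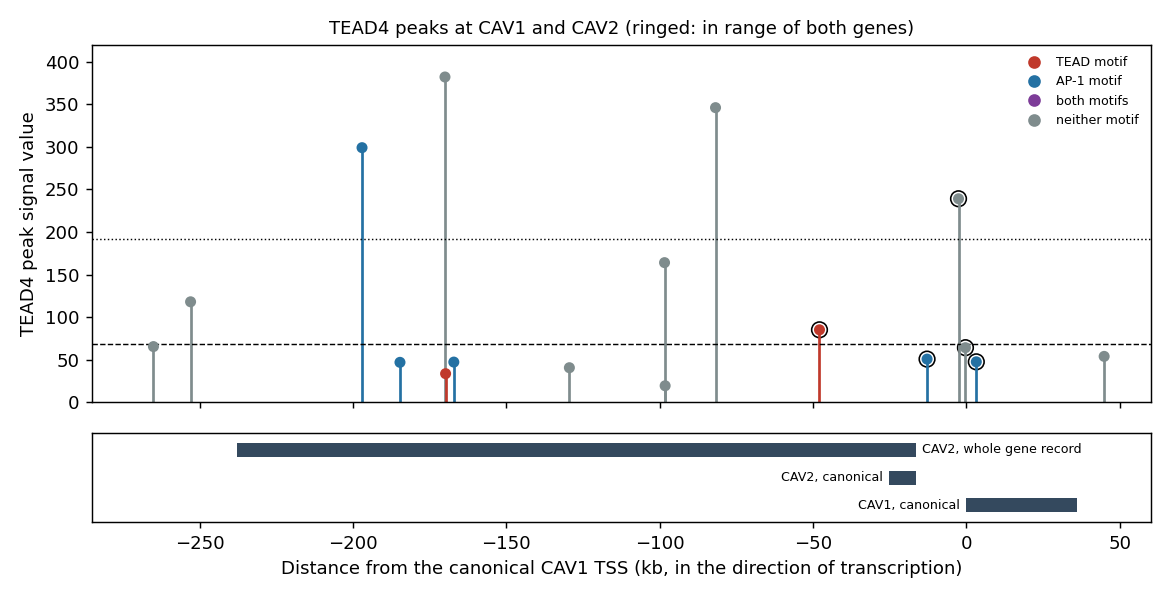
Signal values (vertical axis) of the 17 TEAD4 peaks at CAV1 and CAV2 against distance from the canonical CAV1 TSS in kb, coloured by the motifs within 100 bp of the summit. The dashed line is the median of all peaks (68.1), the dotted line the bound of the top 10% (192), rings mark peaks in range of both genes, and the bars below show the gene spans. The 3 highest peaks, 382, 346 and 299, stand far upstream within the long CAV2 record, and the fourth, 239, stands beside the CAV1 start site.

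CAV3, the caveolin of striated muscle, spans chr3:8733802-8841808, a record that 1 transcript without a defined coding sequence extends across the neighbouring genes. Its 3 peaks had signal values of 96.1, 51.9 and 65.7, none of them in the top 10% and none within 2.5 kb of a CAV3 TSS. Each was closer to another gene, the first to SSUH2 (3323 bp), the second to OXTR (10210 bp) and the last to RAD18 (61656 bp). With the canonical transcript only, 2 of the 3 remained in range. The first 2 carried an AP-1 motif and the last a TEAD motif 23 bp from its summit.

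Among the cavins, CAVIN1 encodes the coat protein that is required for caveolae to form. The gene lies at chr17:42402449-42423256 on the minus strand and has 1 annotated TSS. Its 3 peaks all had this TSS as the nearest coding start site. The strongest, at chr17:42428220-42428546, 5137 bp upstream, had a signal value of 276 (rank 941). It held the TEAD motif 4 bp from the summit and AP-1 motifs 16 and 59 bp from it, as printed above. The promoter peak, 211 bp upstream, had a signal value of 113 and only the TEAD core, and a peak in intron 1, 1440 bp downstream, had a signal value of 97.6 with a GC content of 77.6%, the highest of the family. All 3 were above the median of the list, and the upstream element was 2.45 times the strongest promoter peak.

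CAVIN2 encodes a cavin that bends membranes and enlarges caveolae when abundant. The gene lies at chr2:191834310-191847088 on the minus strand. Its start site was covered by a peak at chr2:191847026-191847259, with the summit 39 bp upstream and a signal value of 134. The strongest peak lay 7456 bp upstream, with a signal value of 198 (rank 1977), and 4 more followed at 18021, 20158, 31694 and 47725 bp upstream with signal values of 92.5, 150, 73.3 and 39.4. All of these, the start-site peak included, lay in introns of the lncRNA gene CAVIN2-AS1. The remaining peak, 40458 bp downstream of the TSS and beyond the gene, had a signal value of 31.4, and its IDR score, 878, was the lowest of the family.

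The upstream row of CAVIN2 held no TEAD motif in any of its peaks, and CAVIN2 had none in all 7. The peaks of 150 and 39.4 carried an AP-1 motif, 35 and 58 bp from the summit. The start-site peak and the downstream peak carried the TEAD core only. None of the 7 was nearer to the TSS of another coding gene.

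CAVIN3 and CAVIN4 had 1 peak each. That of CAVIN3 (gene at chr11:6318946-6320532, minus strand), which encodes a cavin involved in the movement of caveolae, lay inside the gene at chr11:6319744-6320187, with a signal value of 94.8. Its summit lay in intron 1 of the canonical transcript, 535 bp downstream of the canonical TSS, and over an exon of another CAVIN3 transcript, 96 bp from the nearest annotated TSS. The TEAD motif lay 30 bp from the summit. CAVIN4, the muscle cavin (chr9:100578079-100588389), had its peak 20867 bp downstream of the TSS and beyond the gene, where the signal value was 44.2 and the IDR score 928, and it held neither motif. This was the weakest maximum among the 10 genes.

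At the neck of caveolae, EHD2 is an ATPase that holds the pit at the membrane. The gene lies at chr19:47713422-47743134 on the plus strand. Its peaks had signal values of 245 (intron 3, 5972 bp downstream of the canonical TSS), 62.5 (intron 4), 216 (intron 4) and 169 (just past the end of the gene). The peaks of 245 (rank 1240) and 216 (rank 1632) were both in the top 10% of the list, and the median signal value of the 4, 193, was the highest among the genes. The peak of 216 lay 101 bp from the start of an EHD2 transcript without a defined coding sequence and held an AP-1 motif 32 bp from the summit. The peak of 169 held 2 AP-1 motifs, and its nearest coding TSS was that of NOP53, 2240 bp away.

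PACSIN2 and PACSIN3 encode F-BAR proteins, which bind and shape curved membranes. The 2 peaks of PACSIN2 (chr22:42835412-43015149, minus strand) lay at alternative start sites, over an annotated UTR, and none lay within 2.5 kb of the canonical TSS. The one with a signal value of 122, at chr22:43002239-43002459, was 106 bp downstream of an alternative TSS, and the centre of its TEAD motif was the summit itself. The other, 3 bp from an alternative TSS, had a signal value of 45.4 and only the TEAD core.

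PACSIN3 (chr11:47177522-47186443, minus strand) had its 4 peaks upstream of the gene, at 3025, 5906, 30206 and 34344 bp from its nearest TSS, with signal values of 70.5, 74.8, 130 and 53.3. The nearest held a TEAD motif 14 bp from the summit. The 2 farthest lay in DDB2, whose TSS was 264 bp from the strongest of the 4.

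**Figure D3:**
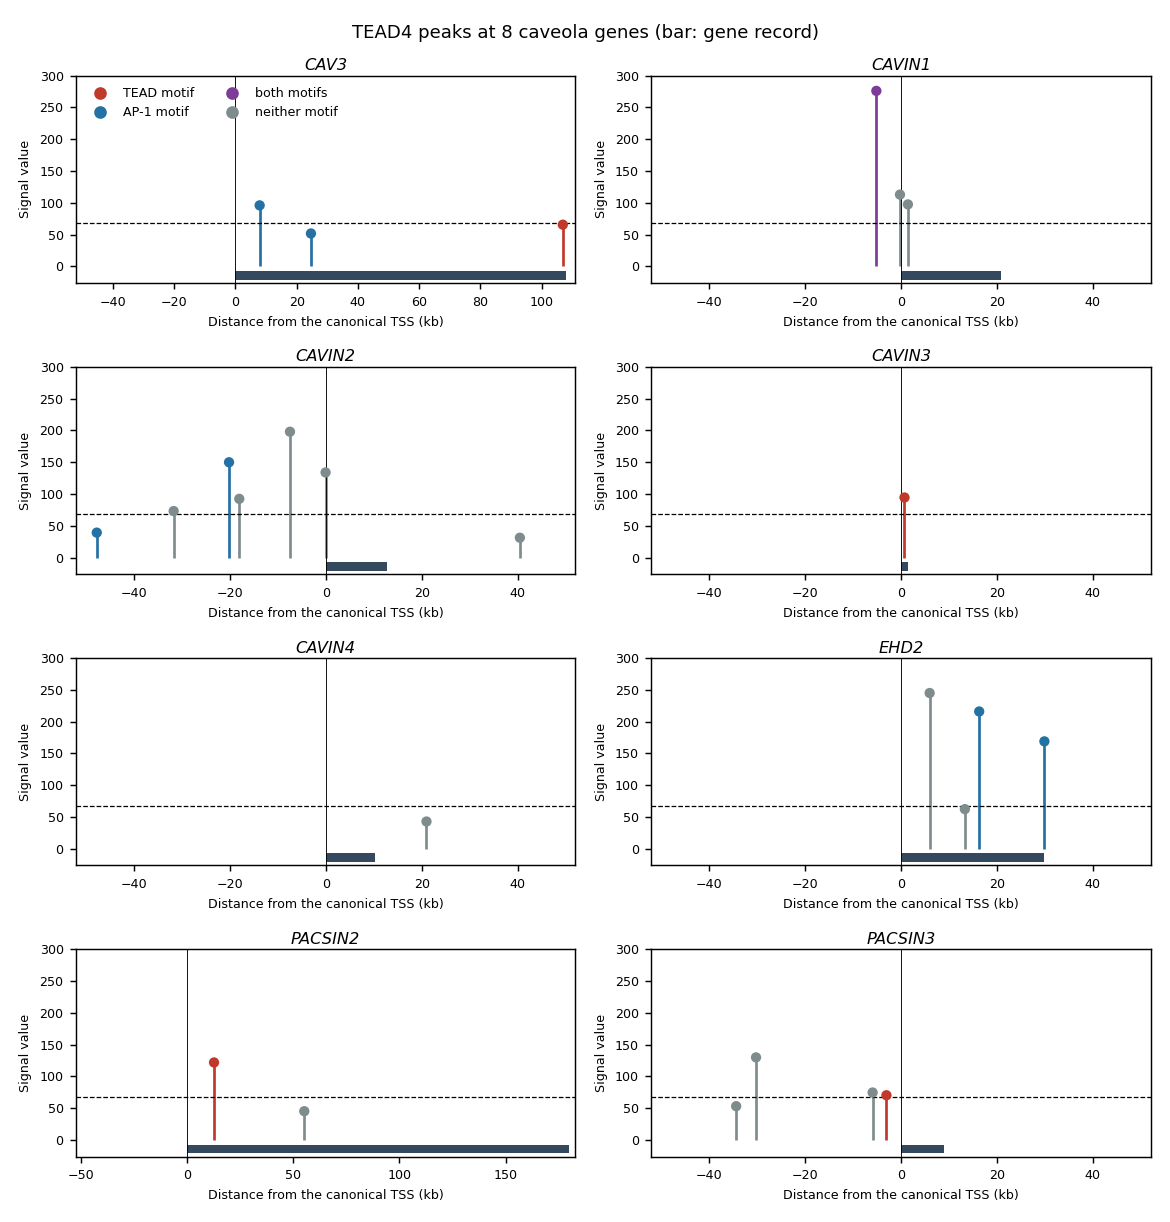
Signal values (vertical axis) of the TEAD4 peaks at the other 8 genes against distance from the canonical TSS in kb, positive in the direction of transcription, with a bar for the gene record and a dashed line at the median of all peaks (68.1). Peaks lie beside the start site at CAVIN1, CAVIN2 and CAVIN3, within the gene at PACSIN2 and upstream at PACSIN3. At EHD2 they lie within the gene except for 1 just past its end, and CAVIN4 has 1 peak of 44.2 beyond its end.

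At the 4 genes with both a promoter peak and other peaks, the strongest peak was not at the promoter. The signal value of the strongest peak was 3.72 times that of the strongest peak within 2.5 kb of a TSS at CAV1, where the stronger summit was only just past this limit, 2.45 times at CAVIN1, 1.48 times at CAVIN2 and 1.13 times at EHD2. Among the 2370 protein-coding genes with both kinds of peak, this order was found in 65.1%, so it was the more common order in the list as a whole. The 10 peaks of the family within 2.5 kb of a TSS of a member had a median signal value of 96.2 (45.4 to 216), and the 32 others one of 74 (19.4 to 382). The range of the former lay inside that of the latter.

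Over all 42 peaks, the median signal value was 80.0 (19.4 to 382), against 68.1 over the list, with 24 of the 42 above the list's median and 8 in its top 10%. Without the CAV1 and CAV2 locus the median of the remaining 25 peaks was 94.8. The highest IDR score, 1000, was reached by 36 of the 42, and by 76.1% of all peaks. Ordered by their strongest peak, the genes were CAV2 (382), CAVIN1 (276), EHD2 (245), CAV1 (239), CAVIN2 (198), PACSIN3 (130), PACSIN2 (122), CAV3 (96.1), CAVIN3 (94.8) and CAVIN4 (44.2). EHD2 and CAV1, and likewise CAV3 and CAVIN3, had nearly equal values. The order also depends on how peaks are attributed. With canonical transcripts only, the strongest peak of CAV2 was the CAV1 upstream element (239). The peaks given for PACSIN3 and CAV3 were nearer to a TSS of DDB2 and of SSUH2. Whether neighbours in this order differ beyond replicate error cannot be told from 1 combined list.

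**Figure D4:**
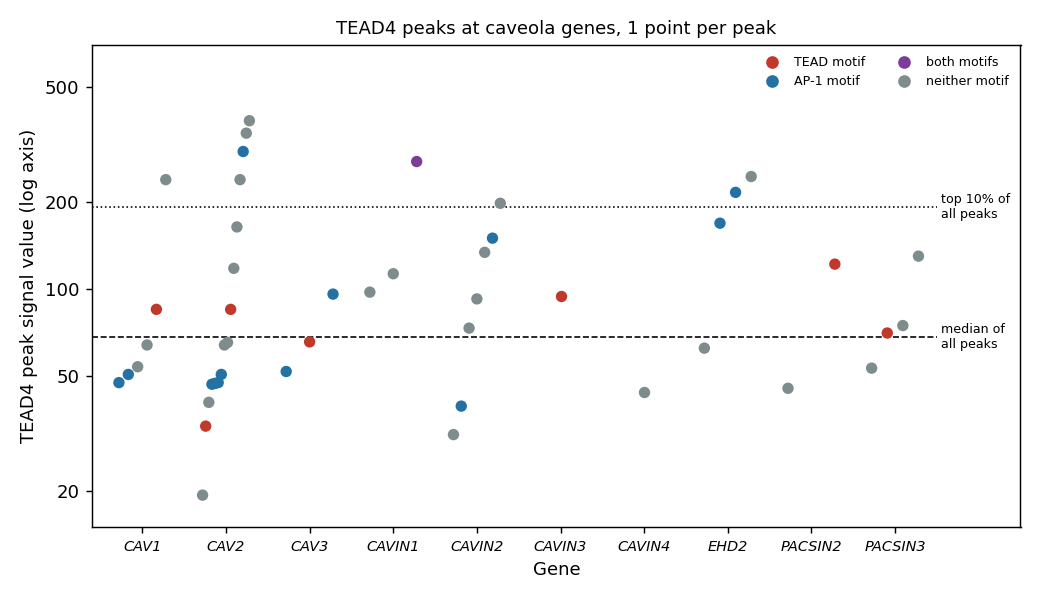
Each point is a TEAD4 peak, placed by gene and by signal value on a log axis and coloured by the motifs within 100 bp of its summit, with the 5 peaks in range of both CAV1 and CAV2 drawn at each. Points of CAV1, CAV2, CAVIN1, CAVIN2 and EHD2 lie above the top 10% line (192), and the only point of CAVIN4 lies below the median line (68.1).

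By position, 30 of the 42 summits lay in introns of coding or lncRNA genes, 9 lay outside such genes and 3 lay over an exon (that of CAVIN3 and both of PACSIN2). For 35 of the 42, the nearest coding TSS belonged to a member, and for 7 it belonged to another gene, namely TES, SSUH2, OXTR, RAD18, NOP53 or, for 2 peaks, DDB2. The 50 kb limit fell within the dense stretch of CAV2. The farthest peaks inside it were 47864 bp (CAV1, signal value 85.1) and 47725 bp (CAVIN2, 39.4) from a TSS. Past it, 9 of the 42 peaks were kept only because they lay in a gene body, 8 at CAV2 and 1 at CAV3. The nearest of these were 50462 bp (signal value 46.9), 56499 bp (346) and 65132 bp (382) from a CAV2 TSS, so that 2 of the strongest peaks of the family depended on the gene body. Of the peaks that were not kept, the nearest were 56916 bp from a TSS of CAV1 (54.9) and 69091 bp from one of CAV2 (88.7).

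The motif searches covered 100 bp on either side of the summit and both strands. The TEAD motif ACATTCC was found in 7 of the 42 peaks (16.7%, exact Clopper-Pearson 95% interval 6.97 to 31.4%), against 23.0% of all peaks. Equally wide windows placed 2000 bp up- and downstream of each summit served as a background, and 2 of 84 of these at the 42 peaks held the motif, as did 2.82% of those at all peaks. The share in all peaks, 23.0%, lay inside the interval. The interval treats the 42 peaks as independent, although 17 of them lie at CAV1 and CAV2. No conclusion on a difference can therefore be drawn from it. The 7 peaks were the weak companion peak of CAV2, the inverted pair shared by CAV1 and CAV2, and 1 peak each at CAV3, CAVIN1, CAVIN3, PACSIN2 and PACSIN3. They had signal values of 33.6 to 276. Of the 8 peaks in the top 10% only that of CAVIN1 held the motif within 100 bp, against 33.1% of the top 10% of the whole list. The motif of the weak companion also lies in the interval of the strongest CAV2 peak, just over 100 bp from its summit. With the shorter core CATTCC, 42.9% of the 42 peaks and 46.8% of all peaks held a match.

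The AP-1 motif was found in 12 of the 42 peaks (28.6%, interval 15.7 to 44.6%), against 25.4% of all peaks, 4 of 84 flanking windows and 3.43% of the flanking windows of all peaks. AP-1 is the dimer of FOS and JUN proteins that binds many enhancers beside TEAD factors. It was seen at CAV1, CAV2, CAV3, CAVIN1, CAVIN2 and EHD2. The peaks with it had a median signal value of 74 (39.4 to 299) and those without it one of 80.0 (19.4 to 382). Only the CAVIN1 upstream element held both motifs, and 24 of the 42 peaks held neither.

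The RUNX motif TGTGGTT was found in 0 of the 42 peaks (interval up to 8.41%), against 9.53% of all peaks, 3 of the 84 flanking windows and 3.68% of the flanking windows of all peaks. The share in all peaks lay above the interval, and that in all flanking windows lay inside it. The intervals cover counting error only, peaks of 1 locus are neighbours and not replicates, and a missing match says only that these letters are not in the window.

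Other genes linked to caveolae or to membrane rafts showed a mixed picture. Of 12 such genes (EHD1, EHD3, EHD4, PACSIN1, FLOT1, FLOT2, DNM2, FLNA, ROR1, NOSTRIN, SRC and ABL1), 8 had a peak by the same rule, against 56.2% of all protein-coding genes. A promoter peak was present at 4, against 16.7% of all genes, and a peak in the top 10% at 5, against 11.3%. The median density was 1.12 peaks per 100 kb, against 0.667 over all genes. Among the paralogues, EHD1 had 3 peaks with a maximum signal value of 355, at a start site, and EHD4 had 4 with a maximum of 399, whereas EHD3 and PACSIN1 had none. ROR1, a receptor that holds caveolin-1 and CAVIN1 together, had 14 peaks over a long window, up to 505. FLOT1, a raft scaffold protein, had 10, up to 423, and FLOT2 had none. The strongest FLOT1 peak within 2.5 kb of a TSS had a signal value of 34.1. Whether the peaks of these 12 genes lie nearer to other genes is not given here. FLNA, which tethers caveolae to actin, had 2 promoter peaks up to 222. DNM2 and SRC had 1 peak each, ABL1 had 6, and NOSTRIN had none.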

How the data were processed

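The authors mapped the ChIP-seq reads to hg38 with Chromap and applied the ENCODE IDR pipeline. The peak caller used for TEAD4 is not given in the sources used here. The deposited list gives, as the authors' values, the scaled IDR score, the signal value, the −log10 q-value and the offset of the summit for each peak. The meaning of each column was inferred from the ENCODE format and from its range. The list has no column per sample, so depth is unknown, replicates were not compared and no test was made.

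Peaks were attributed to genes by the 1-based summit with GENCODE release 44, using the first record of each protein-coding symbol. All 21113 peaks end inside the hg38 chromosomes used. Windows of overlapping TSS ranges were merged for densities. Motifs were matched exactly, wholly inside 100 bp of the summit. Sequences were read from hg38. The code was tested on simulated data. Python 3.11.15, numpy 2.4.6, pandas 2.3.3, scipy 1.17.1 and matplotlib 3.10.9 were used.

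All 10 listed genes were described, each with its nearest and strongest peaks, those with a TEAD motif and those in the top 10%. The members, the lists and the settings were chosen with earlier results of these data known.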

Additional observations from a re-analysis of the deposited data

How the results depend on the processing

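In all, 55 comparisons were made, each of 1 result under 1 alternative setting, and most settings served several results. Of these, 50 were planned. The other 5 came from 1 setting, each gene reduced to its canonical transcript, which was chosen after seeing the data. In 52 comparisons the count stayed within 1.5 times its value, or the share or median within its 95% binomial interval, and in 3 the value moved. Keeping only peaks above the list's median signal value left 24 peaks with a median of 132, by construction, and the TEAD core in place of the full motif raised the share from 16.7% to 42.9%. The number of genes with a peak was 9 or 10 throughout. It was 9 with a 10 kb distance, with only the highest IDR score, with only peaks above the median and with the nearest coding TSS required. The number of genes with a promoter peak ran from 4 (1 TSS per gene) to 7 (5 kb). The number of peaks was 29 at 10 kb, 50 at 100 kb, 33 without the gene body and 30 with canonical transcripts. No paired analysis was possible because replicates 1 and 3 were merged by the authors, and neither could be left out in turn.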
